A study of Arabidopsis thaliana with 6 samples.

Results

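The genes described here are AT4G33720, AT4G30320 and AT4G25790, 3 Arabidopsis thaliana genes of the CAP family of secreted proteins. They were picked by locus in the array's annotation because they moved in opposite directions in roots with altered RSL4. They are 3 of the 13286 loci with a probe set of their own in the deposited data, and 3 of 22 CAP loci listed for the species. All 3 passed the filter on dim signals, AT4G33720 through its rsl4-1 arrays.

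CAP proteins take their name from cysteine-rich secretory proteins, an insect venom antigen and plant PR-1 proteins, which share a compact fold held by disulphide bridges. In plants they are made with a signal peptide and released to the cell wall space. The best known member in Arabidopsis is PR1, the standard marker of salicylic acid defence, and some family members carry a conserved end from which a short signalling peptide can be released. The annotation used here names these 3 genes by locus only, and no specific role is attached to them below.

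Root RNA was hybridised to 6 Affymetrix ATH1 arrays, 2 for each genotype. 35S::RSL4 plants carry RSL4, a basic helix-loop-helix activator of root hair growth, behind the 35S promoter of cauliflower mosaic virus, which is active in most plant tissues. The rsl4-1 plants carry a T-DNA knock-out of RSL4 according to the labels, and Col-0 is the wild type. All 3 genotypes share the Col-0 background and were seedling roots at growth stage 3.2, grown on vertical plates of Murashige and Skoog medium with 1% sucrose at pH 5.7, at 25 °C in constant light. The labels describe 35S::RSL4 by the same T-DNA knock-out entry as rsl4-1, and they do not say how many independent transgenic lines were used, so the groups are called by their titles. They give 4 days of cold treatment of seeds for 35S::RSL4 and rsl4-1, but both 2 and 4 days for Col-0. A difference in seed treatment and a difference in genotype cannot be told apart. Nothing in the labels says that the arrays of a genotype came from separately grown plants, so the p-values below rest on the spread of these samples alone, and that spread may be technical.

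Signals are the deposited MAS5 values, in scaled units with a trimmed mean of 100.01 on every array. Each mean is followed by its SD (n = 2 arrays). Across the 14170 tested probe sets, Pearson's r was 0.982 to 0.986 within a genotype, against 0.957 to 0.972 for pairs of unlike genotype; it is across genes, which are not independent replicates. A signal is called dim below its array's 40th percentile, which lay between 20.3 and 22.4. No probe set was matched to RSL4, so the genotype labels were not checked on that gene. The root label was checked on markers: 4 of 10 listed root hair genes had a probe set of their own, and all 4 were above the dim level on every array, while 0 of 6 listed markers of other root tissues had one. Of 6 listed shoot genes 2 were measured, RCA and LHCB4.1, and neither was dim on any array. With genes of both kinds above the dim level, these markers cannot settle the root label.

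The 3 CAP genes fell into both directions. AT4G33720 had its highest signal in rsl4-1 roots, whereas AT4G30320 and AT4G25790 had their lowest there and their highest in 35S::RSL4 roots. The contrasts between the lines and Col-0 chose the genes, so their changes are given as a description and without a test. For scale, limma called 6.27% of all tested probe sets changed in 35S::RSL4 against Col-0, 3.81% in rsl4-1 against Col-0 and 5.46% between 35S::RSL4 and rsl4-1 (Benjamini-Hochberg adjusted p below 0.05). The RNA came from whole roots, in which fewer cells of a type and less RNA per cell cannot be told apart.

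AT4G33720 had signals of 19.4 and 11.7 in 35S::RSL4 roots, 240 and 243 in rsl4-1 roots, and 24.7 and 21.7 in Col-0 roots. Both rsl4-1 arrays stood far above the other 4 arrays, which lay close to or below the dim level. The mean was 15.6 ± 5.48 in 35S::RSL4, 241 ± 2.11 in rsl4-1 and 23.2 ± 2.12 in Col-0. The signal was 10.4-fold higher in rsl4-1 than in Col-0, a log2 change of 3.38 (SE 0.22), although only 1 of the 2 Col-0 arrays was above the dim level.

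In 35S::RSL4 roots AT4G33720 was dim on both arrays. Its log2 change against Col-0 was -0.62 (SE 0.22), or at least 1.13-fold lower when dim signals are set to the dim level. The arrays of these genotypes did not overlap, but they differed by little next to the gap to rsl4-1. The log2 change was -0.99 without 35S::RSL4 replicate 1 and -0.25 without 35S::RSL4 replicate 2, so 1 array decided much of it. Between the lines the signal was at least 11.8-fold lower in 35S::RSL4 than in rsl4-1, a bound because AT4G33720 was dim in 35S::RSL4.

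AT4G30320 had signals of 169 and 268 in 35S::RSL4 roots, 40.5 and 23.9 in rsl4-1 roots, and 107 and 107 in Col-0 roots. The genotypes did not overlap, with 35S::RSL4 highest and rsl4-1 lowest. The mean was 218 ± 69.8 in 35S::RSL4, 32.2 ± 11.7 in rsl4-1 and 107 ± 0.309 in Col-0. It was 1.99-fold higher in 35S::RSL4 than in Col-0 (log2 change 0.99, SE 0.23) and 3.44-fold lower in rsl4-1 than in Col-0 (log2 change -1.78, SE 0.23). The arrays of 35S::RSL4 differed from each other by a factor of 1.58 and those of rsl4-1 by a factor of 1.69, so the sizes of these changes are loosely fixed. Leaving out single arrays gave log2 changes from 0.66 to 1.32 in 35S::RSL4 and from -2.16 to -1.40 in rsl4-1.

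AT4G25790 had signals of 385 and 443 in 35S::RSL4 roots, 82.6 and 78.7 in rsl4-1 roots, and 207 and 190 in Col-0 roots. The order of the genotypes was that of AT4G30320, again without overlap, and the arrays of a genotype lay closer together, within factors of 1.05 to 1.15. The mean was 414 ± 41.5 in 35S::RSL4, 80.7 ± 2.77 in rsl4-1 and 198 ± 12.2 in Col-0. It was 2.08-fold higher in 35S::RSL4 than in Col-0 (log2 change 1.06, SE 0.14) and 2.46-fold lower in rsl4-1 than in Col-0 (log2 change -1.30, SE 0.14). The difference between the lines was 5.12-fold for AT4G25790 and 6.84-fold for AT4G30320, both higher in 35S::RSL4.

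**Figure D1:**
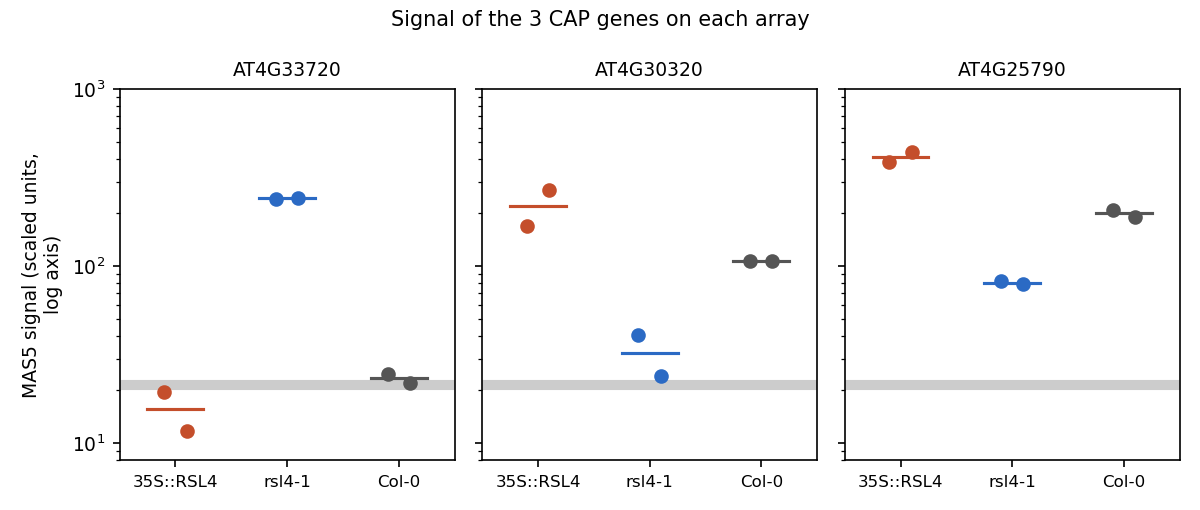
Each panel plots the MAS5 signal (scaled units, log axis) of 1 CAP gene, with a point for each array, a line at the mean of the 2 arrays and a grey band at the dim level, 20.3 to 22.4. AT4G33720 is at 240 and 243 in rsl4-1 and close to or under the band elsewhere, while AT4G30320 and AT4G25790 are highest in 35S::RSL4 and lowest in rsl4-1.

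Over the 6 arrays the log2 signals of AT4G25790 and AT4G30320 correlated at r = 0.97, and that of AT4G33720 at r = -0.96 with AT4G30320 and r = -0.95 with AT4G25790. These values restate the directions by which the genes were chosen. They share the same 6 arrays, and most of their spread lies between genotypes.

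The rest of the CAP family was then examined to see how common such changes were in it. Of the 19 other loci, 16 had a probe set of their own and 7 passed the filter on dim signals. PR1, its close relative PRB1 and AT5G57625 had none and were not analysed here. The 9 below the filter were dim on all 6 arrays, with no signal above 16.1. The names of all 19 CAP probe sets measured have the plain _at ending, which Affymetrix gave to sets designed for a single transcript.

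Among the 7 other tested CAP genes, 3 rose in 35S::RSL4 roots against Col-0 and 4 did not pass the test (limma, adjusted over all 14170 probe sets). None fell, and at an unadjusted p below the threshold 4 were higher and 0 lower. Over all tested probe sets 3.39% were called higher and 2.88% lower in this comparison at the adjusted threshold. The share of all probe sets at the unadjusted threshold was not counted. The unadjusted counts here and below therefore have no background to be set against. The median log2 change of the 7 genes was 0.64, against -0.06 for all tested probe sets. AT1G50060 would not have passed the filter without its 35S::RSL4 arrays. Its difference in that direction was therefore partly fixed by the filter, and its call is not independent evidence.

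In rsl4-1 roots 1 of the 7 rose against Col-0, 0 fell and 6 did not pass, with 2 higher and 1 lower at an unadjusted p below the threshold. Over all tested probe sets 1.67% were called higher and 2.15% lower at the adjusted threshold. The median log2 change of the 7 genes was 0.01, against -0.03 for all tested probe sets. Between the lines 2 of the 7 were higher in 35S::RSL4 than in rsl4-1, 0 were lower and 5 did not pass, with 2 higher and 1 lower at an unadjusted p below the threshold. Over all tested probe sets 3.19% were called higher and 2.27% lower at the adjusted threshold. AT1G50060 was 1 of the 2 higher between the lines, and the limit set by the filter applies to it here too. The 3 genes above had been taken out of the family for their changes, so these counts describe the remaining members only.

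AT4G33730 is the next protein-coding locus after AT4G33720 and encodes a CAP protein known in Arabidopsis as the precursor of a signalling peptide in salt responses. It had signals of 307 and 350 in 35S::RSL4 roots, 101 and 94.1 in rsl4-1 roots, and 128 and 122 in Col-0 roots. Both 35S::RSL4 arrays stood above all others. It rose 2.62-fold in 35S::RSL4 against Col-0 (log2 change 1.39, SE 0.14, limma adjusted p = 2.9e-05), and it was 3.37-fold higher in 35S::RSL4 than in rsl4-1 (limma adjusted p = 4.2e-07). In rsl4-1 its log2 change against Col-0 was -0.36 (SE 0.14, limma adjusted p = 0.2), which did not pass the test. Of the remaining tested family it had the profile nearest to those of AT4G25790 and AT4G30320, at r = 0.93 and r = 0.87 over the 6 arrays. Against AT4G33720 beside it the value was r = -0.76. AT2G19970, which passed the test in no comparison, had r = -0.80 with AT4G33720 and r = 0.82 with AT4G30320.

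AT4G07820 rose in both lines. Its signals were 557 and 504 in 35S::RSL4 roots, 753 and 594 in rsl4-1 roots, and 288 and 288 in Col-0 roots. All 4 arrays of the lines lay above both Col-0 arrays. It rose 1.84-fold in 35S::RSL4 (log2 change 0.88, SE 0.14, limma adjusted p = 0.0011) and 2.32-fold in rsl4-1 (log2 change 1.22, SE 0.14, limma adjusted p = 4.7e-05). Both changes were measured against the same Col-0 arrays. Between 35S::RSL4 and rsl4-1 the log2 change was -0.34 (limma adjusted p = 0.18), which did not pass the test.

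AT1G50060 had signals of 39 and 60 in 35S::RSL4 roots, 27.4 and 16.8 in rsl4-1 roots, and 21.5 and 20.9 in Col-0 roots. It was dim on both Col-0 arrays and on 1 of the rsl4-1 arrays. Because it passed the filter only with its 35S::RSL4 arrays, the direction of the calls below was partly fixed by the filter. It was at least 2.17-fold higher in 35S::RSL4 than in Col-0 (limma adjusted p = 0.016) and 2.26-fold higher than in rsl4-1 (limma adjusted p = 0.016). Both calls ended without 35S::RSL4 replicate 2 (adjusted p = 0.18 and 0.19) and with no filter on dim signals (adjusted p = 0.087 and 0.093). The first ended also without Col-0 replicate 1 or 2 (adjusted p = 0.096 and 0.082), and the second without rsl4-1 replicate 2 (adjusted p = 0.22). Over the 13 alternatives the adjusted p ran from 0.0098 to 0.18 against Col-0 and from 0.012 to 0.22 against rsl4-1.

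AT2G19990, which carries the symbol PR-1-LIKE, had signals of 57.1 and 45.1 in 35S::RSL4 roots, 53.5 and 51.3 in rsl4-1 roots, and 32.5 and 32.8 in Col-0 roots. Neither change against Col-0 passed the test. The log2 changes were 0.64 in 35S::RSL4 (limma adjusted p = 0.057) and 0.68 in rsl4-1 (limma adjusted p = 0.056). With quantile normalization both passed (adjusted p = 0.026 and 0.035), as they did with median centring (adjusted p = 0.031 and 0.039), and the rsl4-1 value passed with an offset before log2 (adjusted p = 0.048). Over all 13 alternatives the adjusted p ran from 0.026 to 0.25 in 35S::RSL4 and from 0.035 to 0.26 in rsl4-1.

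The other 3 tested CAP genes were AT2G19970, AT4G31470 and AT5G66590, and none passed in any comparison. AT2G19970 had means of 155 ± 12.3 in 35S::RSL4, 131 ± 11.1 in rsl4-1 and 153 ± 16.4 in Col-0. AT5G66590 had means of 114 ± 2.8 in 35S::RSL4, 116 ± 12 in rsl4-1 and 106 ± 1.72 in Col-0. AT4G31470 was close to the dim level in every genotype, with signals from 18 to 22.7.

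**Figure D2:**
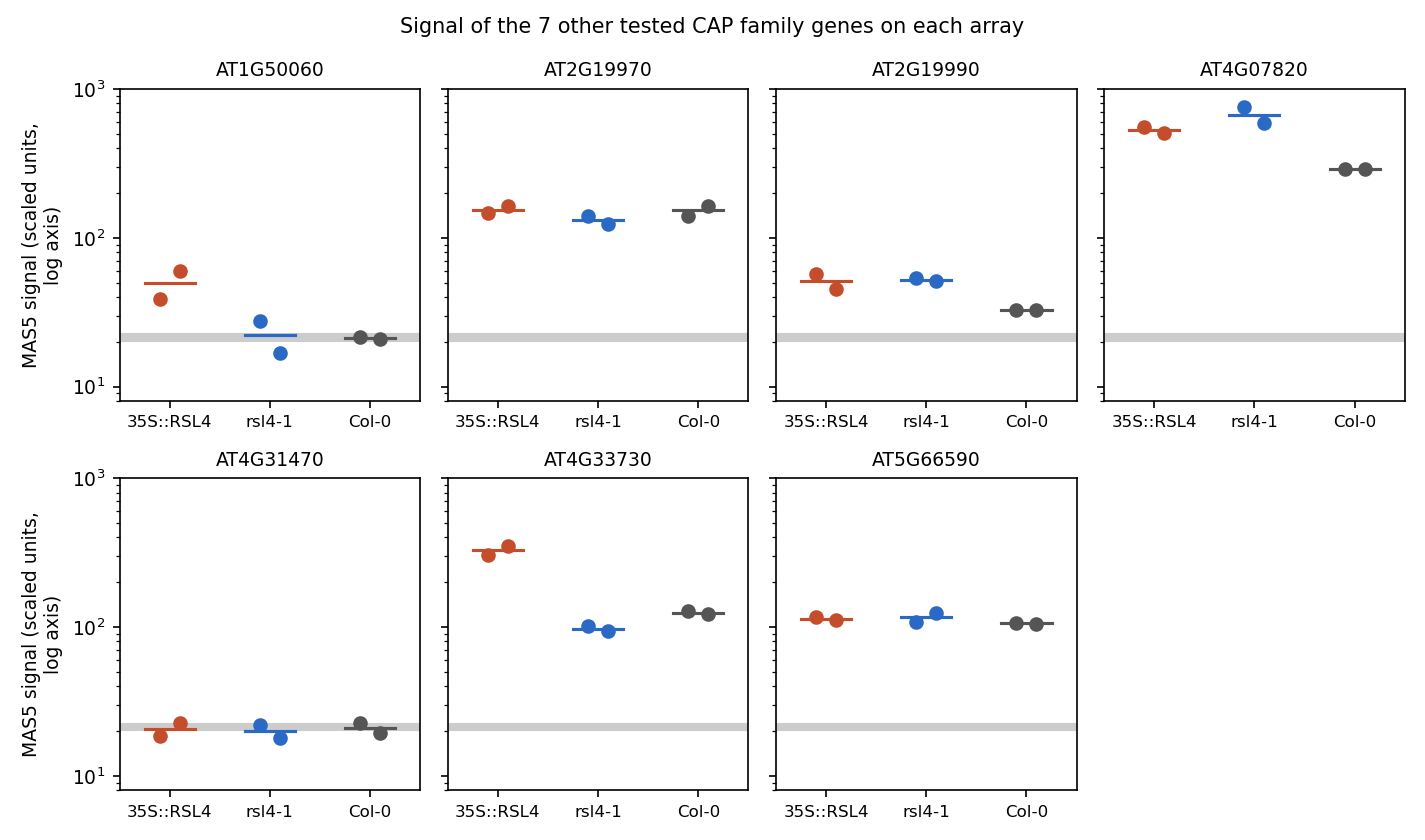
Each panel plots the MAS5 signal (scaled units, log axis) of 1 of the 7 other tested CAP family genes, with a point for each array, a line at the mean of the 2 arrays and a grey band at the dim level. AT4G33730 and AT1G50060 are highest in 35S::RSL4, and AT4G07820 is higher in both lines than in Col-0.

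**Figure D3:**
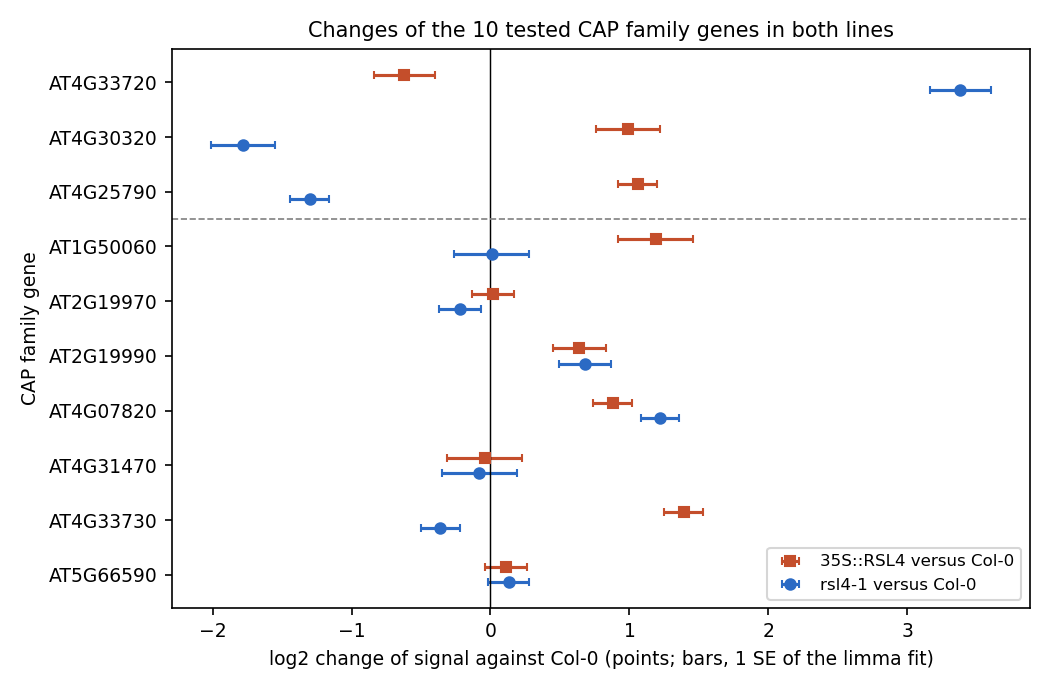
The log2 change of signal against Col-0 is plotted for the 10 tested CAP family genes, with squares for 35S::RSL4, circles for rsl4-1 and bars of 1 SE of the limma fit. Above the dashed line are the 3 genes chosen for opposite directions, among which AT4G33720 has 3.38 in rsl4-1. Below it only AT4G07820 and AT2G19990 have clearly positive values in both lines, and those of AT2G19990 did not pass the test.

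Position was examined next, because all 3 genes lie on chromosome 4 and RSL4 on chromosome 1. AT4G33720 sits between the CAP genes AT4G33710 and AT4G33730, and AT4G25790 follows the CAP gene AT4G25780, in the gene order of the RefSeq annotation of TAIR10.1. AT4G30320 has no family member beside it, the nearest being AT4G31470, 126 protein-coding loci away. The adjacent copies AT4G33710 and AT4G25780 gave no measurable pattern. AT4G33710 was dim on every array, with no signal above 2.65. AT4G25780 was dim on every array too, with 5.96 and 16.1 in 35S::RSL4 roots, 15.6 and 10.7 in rsl4-1 roots, and 8.02 and 8.05 in Col-0 roots.

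Of the 18 loci within 3 protein-coding loci of a chosen gene, 11 had a probe set of their own and 8 were tested. AT4G33730 is 1 of the 8. The shares of all tested probe sets given here are at the adjusted threshold, and none was counted at the unadjusted threshold. In 35S::RSL4 against Col-0, 2 of the 8 rose and 0 fell, beside 3.39% higher and 2.88% lower of all tested probe sets, with 2 higher and 0 lower at an unadjusted p below the threshold. In rsl4-1 against Col-0, 1 rose and 0 fell, beside 1.67% higher and 2.15% lower of all tested probe sets, with 2 higher and 2 lower at an unadjusted p below the threshold. Between 35S::RSL4 and rsl4-1, 1 was higher and 0 were lower, beside 3.19% higher and 2.27% lower of all tested probe sets, with 2 higher and 1 lower at an unadjusted p below the threshold. The median log2 change of the 8 loci was -0.05 in 35S::RSL4 against Col-0, where that of all tested probe sets was -0.06. It was -0.09 in rsl4-1 against Col-0, with -0.03 for all tested probe sets, and -0.13 between 35S::RSL4 and rsl4-1, with -0.04 for all.

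Beside AT4G33730 the locus that changed was XTH19, a xyloglucan endotransglucosylase gene 3 loci before AT4G30320. Its signals were 558 and 511 in 35S::RSL4 roots, 636 and 610 in rsl4-1 roots, and 375 and 390 in Col-0 roots. It rose 1.63-fold in rsl4-1 (limma adjusted p = 0.0027), the line in which AT4G30320 was lowest. In 35S::RSL4 it rose 1.4-fold (limma adjusted p = 0.029), a call that ended under 6 of 13 alternatives, with adjusted p from 0.011 to 0.22. Those were no filter on dim signals (0.055), no intensity trend (0.09), and the fits without 35S::RSL4 replicate 1 or 2 (0.11 and 0.061) or Col-0 replicate 1 or 2 (0.22 and 0.11).

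Farther along on the side of AT4G33710, AT4G33700 had a log2 change of 0.40 in rsl4-1 against Col-0 (limma adjusted p = 0.22) and AT4G33690 of -0.29 (limma adjusted p = 0.55). AT4G30330, the locus after AT4G30320, had a log2 change of -0.55 in rsl4-1 against Col-0 (limma adjusted p = 0.23). Its 2 Col-0 arrays were at 87.2 and 163. The change was -1.01 without Col-0 replicate 1 and -0.10 without Col-0 replicate 2, so its size rested on which Col-0 array was kept. Of the loci around AT4G25790, AT4G25770 was the 1 tested, with log2 changes of -0.12 in 35S::RSL4 and 0.20 in rsl4-1 (limma adjusted p = 0.81 and 0.74).

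**Figure D4:**
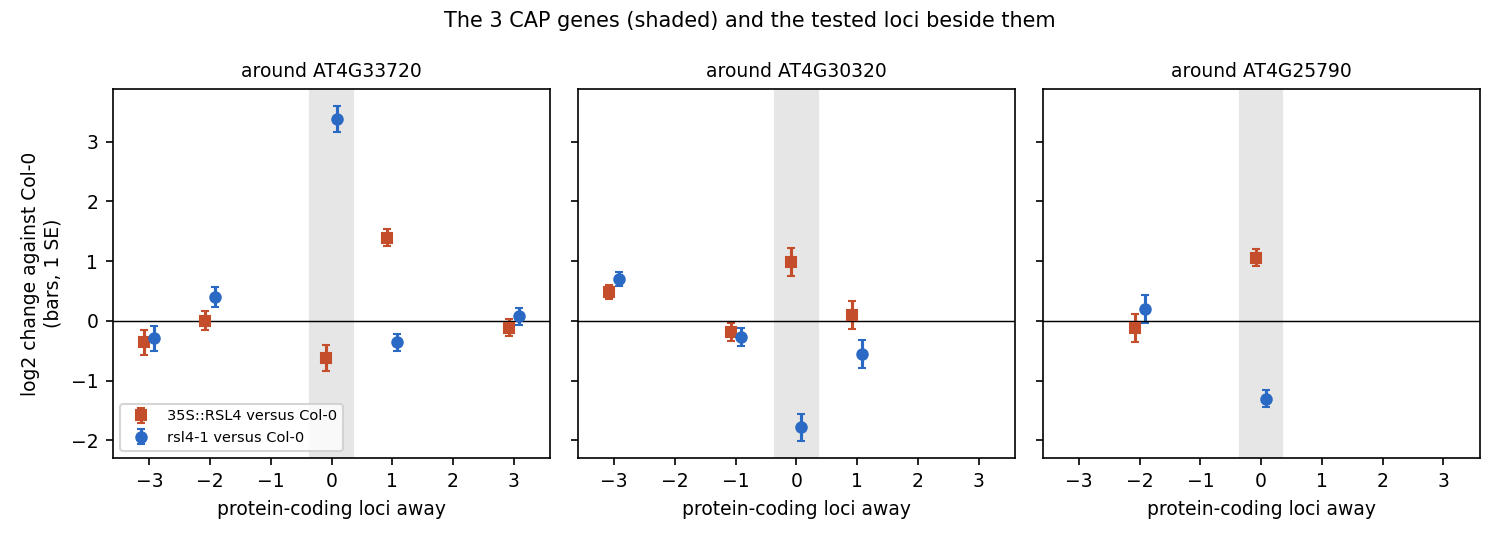
The log2 change against Col-0 is plotted by distance in protein-coding loci from each of the 3 chosen genes (shaded), with squares for 35S::RSL4, circles for rsl4-1 and bars of 1 SE. The tested loci beside the chosen genes lie closer to 0 than the chosen genes in rsl4-1. The chosen genes were picked for their changes, so this largely restates the choice. AT4G33730 stands at 1.39 in 35S::RSL4 beside AT4G33720 at -0.62.

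Genes with the most similar pattern over the 6 arrays were sought by Pearson correlation of log2 signal among 7644 other tested probe sets with 1 gene. The measure ignores the size of a change. It is high for genes that separate the genotypes in the same order and with similar relative spacing. At r of 0.9 or more there were 125 probe sets for AT4G33720 (1.64%), 146 for AT4G30320 (1.91%) and 171 for AT4G25790 (2.24%).

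The genes most like AT4G33720 were BZIP17 (r = 0.997), AT1G73240 (r = 0.994), AT3G47250 (r = 0.991), AT4G31150 (r = 0.989) and AT5G15610 (r = 0.988). BZIP17, a membrane-bound bZIP transcription factor gene of stress signalling, ranged only from 62 to 81. AT5G15610 had signals of 217 and 193 in 35S::RSL4 roots, 374 and 373 in rsl4-1 roots, and 217 and 195 in Col-0 roots. AT3G47250 had 37.9 on both rsl4-1 arrays and was dim on the other 4. Its difference was therefore only bounded, at least 1.7-fold higher in rsl4-1 than in Col-0, while AT5G15610 was 1.82-fold higher there.

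The genes most like AT4G30320 were NET2D (r = 0.995), UGT87A2 (r = 0.991), AT1G24030 (r = 0.991), TET12 (r = 0.988) and AT1G21000 (r = 0.988). TET12, a tetraspanin gene, had signals of 43.7 and 48.9 in 35S::RSL4 roots, 10.8 and 8.84 in rsl4-1 roots, and 27.8 and 26.3 in Col-0 roots. Both of its rsl4-1 signals were dim. NET2D, of a family of actin-binding proteins, ranged only from 60.3 to 75.7. The genes most like AT4G25790 were AT3G51540 (r = 0.995), AT2G41970 (r = 0.993), PLIM2b (r = 0.992), AT3G23870 (r = 0.992) and AT5G58750 (r = 0.991). PLIM2b, which encodes an actin-bundling LIM protein, had signals of 266 and 271 in 35S::RSL4 roots, 133 and 135 in rsl4-1 roots, and 203 and 178 in Col-0 roots. No other CAP gene was among these 15 genes. AT4G30320 (r = 0.97) and AT4G33730 (r = 0.93) were still among the 171 probe sets at r of 0.9 or more with AT4G25790.

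**Figure D5:**
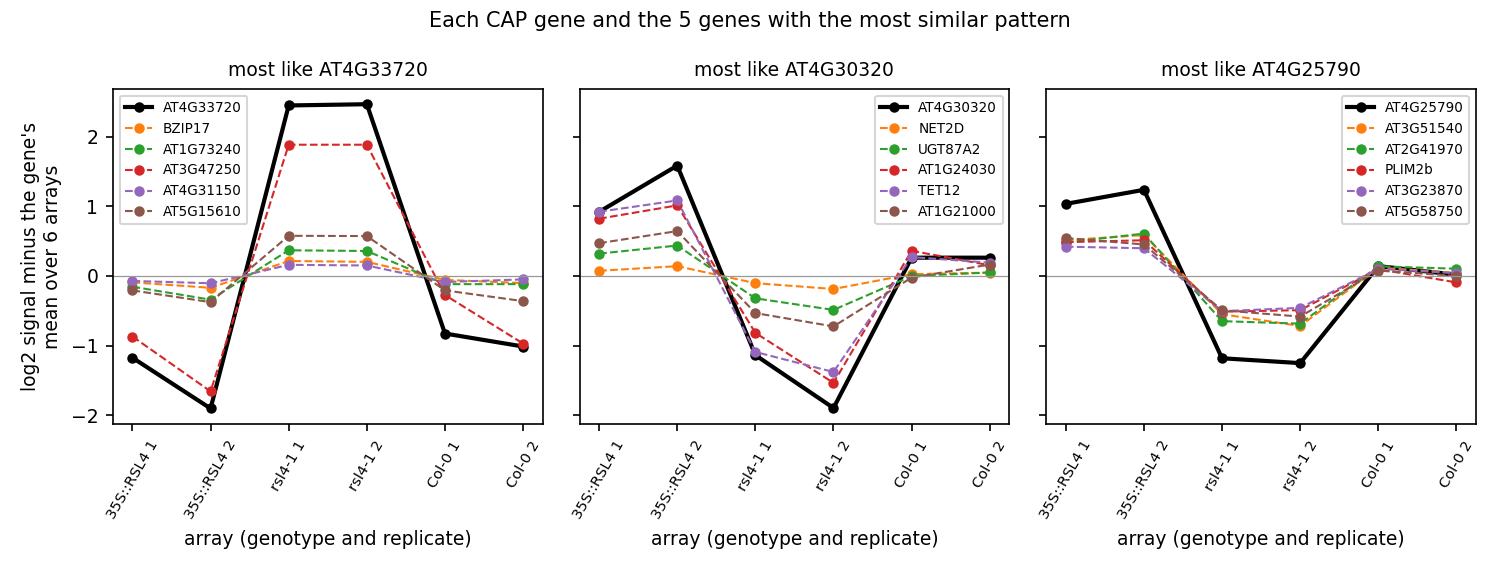
Log2 signal minus the gene's own mean over the 6 arrays is plotted by array for each chosen CAP gene (black) and the 5 genes whose pattern correlated best with it (colours). The rsl4-1 arrays are high for the group of AT4G33720 and low for the groups of AT4G30320 and AT4G25790.

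Of 10 listed root hair markers 4 were measured. All 4 rose in 35S::RSL4 against Col-0, where 3.39% of all tested probe sets were called higher. In rsl4-1 against Col-0, 2 of the 4 fell and 2 did not pass, where 2.15% of all tested probe sets were called lower. The median log2 change of the 4 genes against Col-0 was 1.35 in 35S::RSL4 and -0.62 in rsl4-1, with -0.06 and -0.03 for all tested probe sets. Their summed signal was 1323 and 1392 in 35S::RSL4, 473 and 405 in rsl4-1, and 628 and 605 in Col-0. GH9C1, an endoglucanase gene of root hairs, had signals of 513 and 509 in 35S::RSL4 roots, 190 and 163 in rsl4-1 roots, and 211 and 212 in Col-0 roots. It rose 2.42-fold in 35S::RSL4 (limma adjusted p = 3.5e-05), with a log2 change of -0.27 in rsl4-1 (limma adjusted p = 0.35). XTH26 rose 2.85-fold in 35S::RSL4 against Col-0 (limma adjusted p = 0.00018). In rsl4-1 the log2 change of XTH26 was -0.64 (limma adjusted p = 0.078), which did not pass. EXPA7 and EXPA18, the wall-loosening expansin genes that fell in rsl4-1 (limma adjusted p = 0.017 and 0.02), did not keep these calls under every alternative. The EXPA7 call ended without Col-0 replicate 1 or 2, without rsl4-1 replicate 2 and with no intensity trend (adjusted p = 0.055, 0.21, 0.18 and 0.059). The EXPA18 call ended without Col-0 replicate 1 or 2, without rsl4-1 replicate 1 or 2 and with no intensity trend (adjusted p = 0.22, 0.071, 0.055, 0.19 and 0.077). The part of the number of root hairs in the levels of the CAP genes was not tested.

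Of 6 listed shoot markers 2 were measured, and their summed signal was 257 and 251 in 35S::RSL4, 258 and 258 in rsl4-1, and 387 and 324 in Col-0. LHCB4.1, a light-harvesting protein gene, was lower than Col-0 in both lines, with log2 changes of -0.70 in 35S::RSL4 and -0.67 in rsl4-1 (limma adjusted p = 0.0093 and 0.016). RCA did not pass. The LHCB4.1 call in 35S::RSL4 ended without 35S::RSL4 replicate 2 or Col-0 replicate 1 (adjusted p = 0.07 and 0.16). The rsl4-1 call ended with any single Col-0 or rsl4-1 array left out (adjusted p from 0.054 to 0.21) and with no intensity trend (adjusted p = 0.057). Both lines were compared with the same Col-0 arrays. The part of shoot tissue in the levels of the chosen CAP genes was not tested.

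Of 9 listed defence genes, which included further pathogenesis-related genes, 2 were measured. PDF1.2, a plant defensin gene, was dim on every array. CHI, a chitinase gene at AT2G43570, had signals of 91.7 and 95.6 in 35S::RSL4 roots, 146 and 119 in rsl4-1 roots, and 82.3 and 68.2 in Col-0 roots. Its log2 change in 35S::RSL4 against Col-0 was 0.32 (limma adjusted p = 0.25). It rose 1.76-fold in rsl4-1 against Col-0 (limma adjusted p = 0.0076), the line in which AT4G33720 was highest. It was no longer called when Col-0 replicate 2 was left out, nor when rsl4-1 replicate 1 was, at an adjusted p of 0.13 for each. The lowest adjusted p over the alternatives was 0.0051. With 1 tested gene the list says nothing of defence genes as a group.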

How the data were processed

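Root RNA was measured on 6 ATH1 arrays. The authors deposited 1 intensity value for each probe set, on a linear scale. Per the submitters' processing notes the tools were MAS5 and GCOS; their versions are not given in the sources used here. A filter, applied to the 22746 probe sets left after removal of 64 control sets from 22810, kept those above their array's 40th percentile on at least 2 arrays, 14170 in number. Genes were named by the platform annotation through RefSeq gene numbers of TAIR10.1, which matched 13436 probe sets. No coordinates are given because no build comes with the values.

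The log2 values of these probe sets entered limma 3.58.1 (R 4.3.3) in a single model of the 6 arrays (3 residual degrees of freedom), using eBayes with an intensity trend. Tests are two-sided, and p was adjusted by the Benjamini-Hochberg method across all 14170 at a threshold of 0.05. The number of arrays limits precision: a log2 change had a median SE of 0.166. With 2 arrays against 2 the smallest exact permutation p is 0.333, so no such test was run. A fold involving a genotype dim on both arrays is given as at least the bright level over the higher of the 40th percentile and the dim signal. The fit was tested on simulated data drawn with its own estimate of the spread, which cannot show whether that spread is adequate.

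The members, lists and tests were chosen with earlier results of these data known. Named were the 3 chosen genes, the other CAP loci, the loci within 3 protein-coding loci of a chosen gene (with values where called), the called genes of the root hair and defence lists, and the 5 most correlated genes of each chosen gene. AT4G25770, AT4G30330, AT4G33690, AT4G33700, LHCB4.1 and RCA were added after their values were seen. Family membership is general knowledge of the loci. Each result was refitted with quantile normalization, with median centring, without the filter, with the 20th percentile added before log2, without the trend, with only the 2 genotypes compared, with a replicate block, and without each array in turn. These last fits assume that a single remaining array varies as the other genotypes do. Sequences of the genes were not used here.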

Additional observations from a re-analysis of the deposited data

How the results depend on the processing

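The log2 changes of AT4G33720, AT4G30320 and AT4G25790 kept their direction in all 3 comparisons under all 13 alternatives. The one that moved by more than the spread between replicates was AT4G33720 in rsl4-1, at 3.22 with the 20th percentile offset against 3.38. Leaving out single arrays gave AT4G33720 3.29 to 3.47 in rsl4-1, -0.99 to -0.25 in 35S::RSL4 and -4.37 to -3.63 between the lines. The calls of AT4G33730 and of AT4G07820 in 35S::RSL4, and of AT4G07820 in rsl4-1, held under all 13.

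The number of other CAP genes called in rsl4-1 was 2 with quantile normalization, median centring or the offset, against 1. Between 35S::RSL4 and rsl4-1 it was 1 with no filter, against 2, and 1 to 2 when single arrays were left out. In 35S::RSL4 it was 4 with quantile normalization or median centring and 2 with no filter, against 3, and 2 to 3 when single arrays were left out. For the loci beside the chosen genes, 1 was called in 35S::RSL4 with no filter or no intensity trend, against 2, and 2 between the lines in a fit of only the 2 genotypes compared, against 1. Leaving out single arrays gave 1 to 2 in each comparison.

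Over all probe sets, no filter gave 265 called in rsl4-1, 404 in 35S::RSL4 and 482 between the lines, against 540, 888 and 774, and no intensity trend gave 357 and 564 in rsl4-1 and 35S::RSL4. Leaving out single arrays gave 204 to 522 in rsl4-1, 212 to 759 in 35S::RSL4 and 349 to 653 between the lines. Median centring turned 236 higher and 304 lower in rsl4-1 into 315 and 262, and 480 higher and 408 lower in 35S::RSL4 into 718 and 261. The causes were not tested.

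Deviations of same-numbered arrays from their genotype means correlated at -0.0849 between 35S::RSL4 and rsl4-1, 0.118 between 35S::RSL4 and Col-0 and -0.189 between rsl4-1 and Col-0, so the numbers were not taken as pairs. With the replicate block, 520, 802 and 737 probe sets were called in rsl4-1, 35S::RSL4 and between the lines, and it changed no call of a CAP gene. A crossed replicate block, with the rsl4-1 numbers exchanged and chosen after seeing the data, gave 777, 1421 and 1114 called, with 2 other CAP genes in rsl4-1, 4 in 35S::RSL4 and 2 loci beside the chosen genes between the lines. Of the correlations with similar genes, 1 moved by more than 0.05, that of AT4G31150 with AT4G33720, which was 0.92 with quantile normalization. Dim signals limit the values of AT4G33720, AT1G50060, AT4G31470 and AT3G47250, which were above the dim level on 3 or fewer of the 6 arrays. They also limit the rsl4-1 values of TET12, AT1G24030, AT3G51540 and AT5G58750, which were dim on both rsl4-1 arrays.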
